A study of Homo sapiens with 12 samples.

Results

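The genes described here are known response genes of the p53 pathway: CDKN1A, MDM2, MDM4, GADD45A, SESN1, SESN2, BTG2, PPM1D, FAS and TNFRSF10B. They were taken by name, each through the brightest transcript cluster that the array annotation gives to that gene alone. Of the 10 genes, 9 had such a cluster, 1 each, among 33458 genes tested, and BTG2 was not analysed here. RNA was recovered by ribonucleoprotein immunoprecipitation (RNP-IP) with an antibody to HuR, an RNA-binding protein encoded by ELAVL1, or with nonspecific IgG as the background, from cytoplasmic lysates of MiaPaCa-2, an established human pancreatic ductal adenocarcinoma (PDAC) line. Cells received DMSO, 10 µM olaparib (an inhibitor of PARP enzymes) for 16 h or 1 µM gemcitabine (a nucleoside analog) for 16 h, all in the same complete medium and with no genetic change made to the line. Each antibody and treatment was measured on 2 Clariom D arrays, 12 in all, so that the groups are DMSO IgG-IP, DMSO HuR-IP, olaparib IgG-IP, olaparib HuR-IP, gemcitabine IgG-IP and gemcitabine HuR-IP. By the sample labels both arrays of a group are biological replicates, with no word on their preparation, so p-values measure the spread between these arrays, which may be technical, and precision is limited by their number.

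p53 is a transcription factor that is held at a low level by MDM2 and its partner MDM4 and is released when DNA is damaged. Its targets stop the cell cycle (CDKN1A, GADD45A), restrain p53 again (MDM2, PPM1D), limit growth signalling under stress (SESN1, SESN2) or place death receptors on the cell surface (FAS, TNFRSF10B). MiaPaCa-2 is known to lack CDKN2A, which limits it as a model of the pathway. HuR binds U-rich and AU-rich stretches of mRNA, mostly in untranslated regions, and CDKN1A mRNA is a known HuR target in other cells.

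The response genes share a mode of control outside the RNA that was measured. The RefSeq promoter windows of the GRCh38.p14 assembly, 250 bases before to 50 after a gene start, were searched on both strands for the p53 consensus, a pair of adjacent 10-letter sites named here without its letters, with at least 17 of 20 letters matching. Matches were found in 1826 of 35116 windows, 5.2%, and for 1745 of 27305 genes, 6.39%. Of the 10 genes, 8 had a window, BTG2 included, and GADD45A and TNFRSF10B had none. The 3 with a match are shown because they set out the element from which the gene set takes its name. Capitals mark the central 4 letters of each site, and each line is read on the strand of the gene.
FAS, chr10:88991309-88991328, plus strand, 18 of 20 letters: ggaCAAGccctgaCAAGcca
MDM2, chr12:68808923-68808942, plus strand, 18 of 20 letters: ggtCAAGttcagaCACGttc
MDM2, chr12:68808961-68808980, plus strand, 17 of 20 letters: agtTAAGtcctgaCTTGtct
SESN1, chr6:109009018-109009037, minus strand, 17 of 20 letters: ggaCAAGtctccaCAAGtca
A match describes letters, not binding, and the arrays did not measure p53 on DNA. Sequence outside these windows was not searched, so a gene without a match here may hold one elsewhere. Both MDM2 matches lie close together in 1 window, and FAS and SESN1 hold 1 match each.

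Signals are log2 values, normalized by the authors, and a log2 fold change is a difference of their group means. The array holds 23 control features meant to match no human RNA, whose median on an array was 2.88 to 3.01 and whose brightest was 5.43 to 7.40, against a median gene at 4.20 to 4.34. The keratin genes KRT8, KRT18 and KRT7 and the mesenchymal gene VIM lay above the brightest background feature on 12 of 12 arrays and the keratin KRT19 on 3, while the epithelial markers EPCAM and CDH1 were below it on all. CDKN2A had 2.66 to 2.98, at the level of the background. Of 17 measured markers of other cell types, 5 passed the brightest background feature on any array: COL1A1, of fibroblasts, on 12, CD68, of myeloid cells, on 7, CD3E, of T cells, on 3, CDH5, of endothelium, on 2 and GCG, of islet cells, on 1, and the mean level of the list was 4.40 to 4.95 on IgG-IP arrays and 4.35 to 4.82 on HuR-IP arrays. The other 12, among them PTPRC, LYZ, PECAM1, DCN and PRSS1 of leukocytes, myeloid cells, endothelium, fibroblasts and acinar cells, stayed below it on every array. The gemcitabine and DMSO HuR-IP arrays numbered 2 stood nearer to IgG-IP than the others: over 9139 genes with a mean signal above 6, the SD of HuR-IP minus the IgG-IP array of the same number was 1.20 for the gemcitabine array and 1.12 for the DMSO array, against 2.02 to 2.24 for the other four. Results that rest on these arrays are given with and without them, and their part in any result below was not otherwise tested.

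MDM4 and MDM2 were the response genes with the largest log2 fold changes of HuR-IP over IgG-IP, averaged over the treatments, and HuR-IP was the higher in every pair of arrays with the same number. MDM4 (cluster TC0100018339.hg.1, chromosome 1) encodes the partner of MDM2 that binds and silences the p53 activation domain. Its signal was 7.57 and 6.86 on the IgG-IP arrays and 10.94 and 8.40 on the HuR-IP arrays in DMSO. With olaparib it was 7.78 and 6.71 after IgG-IP and 11.41 and 10.81 after HuR-IP. With gemcitabine it was 6.83 and 4.86 after IgG-IP and 10.76 and 6.29 after HuR-IP. Both HuR-IP arrays therefore lay above both IgG-IP arrays in DMSO and olaparib, and in gemcitabine the HuR-IP array numbered 2 fell between the IgG-IP arrays. MDM4 was above the brightest background feature on 11 of 12 arrays, the gemcitabine IgG-IP array numbered 2 being the exception.

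MDM2 (cluster TC1200008116.hg.1, chromosome 12), the ubiquitin ligase that marks p53 for degradation, had a similar order with a wider spread. Its signal in DMSO was 6.40 and 4.83 after IgG-IP and 10.72 and 5.90 after HuR-IP. With olaparib it was 6.73 and 5.83 after IgG-IP and 9.91 and 8.64 after HuR-IP. With gemcitabine it was 7.08 and 4.86 after IgG-IP and 10.88 and 6.04 after HuR-IP. The antibodies were apart in olaparib alone, and in DMSO and gemcitabine the HuR-IP array numbered 2 lay below the IgG-IP array numbered 1. MDM2 passed the brightest background feature on 5 of 6 HuR-IP arrays and on 1 of 6 IgG-IP arrays. It was above the median background feature on 12 of 12 arrays.

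**Figure D1:**
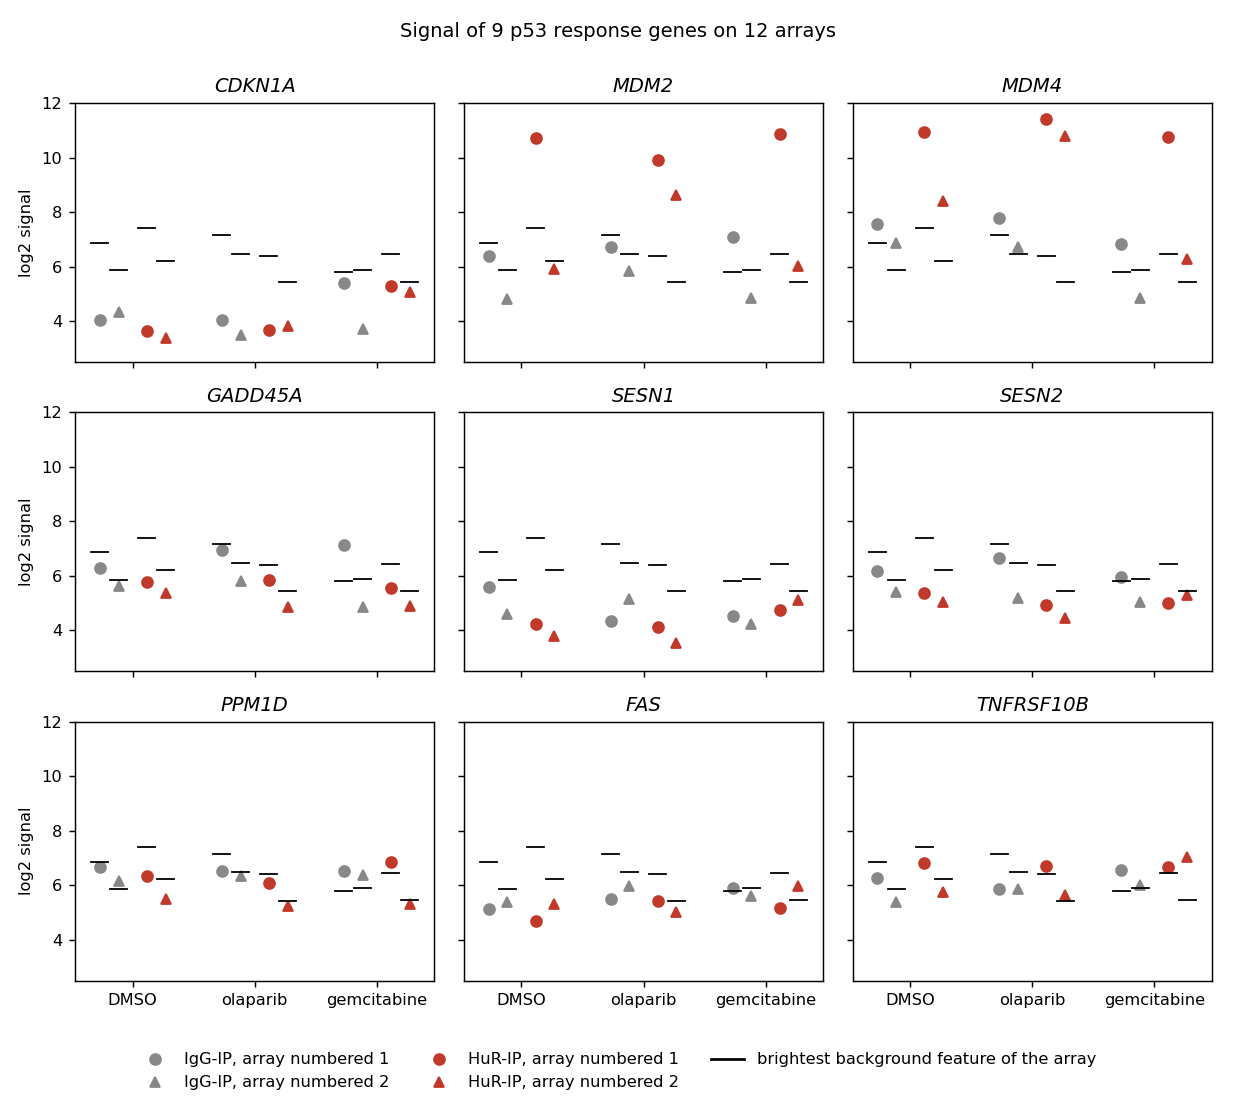
Log2 signal (y axis) of the 9 measured p53 response genes on each of 12 arrays, by treatment (x axis), IgG-IP in grey and HuR-IP in red, with circles for arrays numbered 1 and triangles for those numbered 2. Black bars mark the brightest background feature of each array. For MDM2 and MDM4 the red points reach 10.88 and 11.41. Both red points lie above both grey points for MDM2 in olaparib and for MDM4 in DMSO and olaparib. For the other 7 genes the differences of group means are smaller. Both red points lie below both grey points for CDKN1A, SESN1 and SESN2 in DMSO. The same holds for SESN1, SESN2, PPM1D and FAS in olaparib, and they lie above for SESN1 and TNFRSF10B in gemcitabine.

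The comparison of HuR-IP with IgG-IP asks which of these transcripts were recovered above background. As the mean of the 3 treatments, the log2 fold change was 2.999 for MDM4 (SE 0.81, 95% CI 1.15 to 4.85, limma adjusted p = 0.0529) and 2.73 for MDM2 (SE 1.06, 95% CI 0.30 to 5.16, limma adjusted p = 0.159). From limma, 0 of the 9 genes had an adjusted p under 0.05, against 9.9% of all genes, and at an unadjusted p under 0.05 MDM2, MDM4 and SESN2 passed, against 24% of all genes. Only 330 of the genes tested had a higher log2 fold change than MDM4 and 439 a higher one than MDM2. The replicate number was also fitted as a block, a term for 1 shift between the numbers shared by all groups. Both genes were then called higher (limma adjusted p = 0.00391 for MDM4 and 0.0131 for MDM2), against 6.62% of all genes called higher and 11.6% called lower. The shift was not equal over the groups, at 0.90 to 4.84 for MDM2 and 0.59 to 4.47 for MDM4. With any single array left out, the log2 fold change was 2.25 to 3.74 for MDM4 and 1.92 to 3.53 for MDM2. Both were lowest without the gemcitabine HuR-IP array numbered 1 and highest without that numbered 2. With the gemcitabine and DMSO HuR-IP arrays numbered 2 both left out, the values were 4.17 for MDM4 and 4.34 for MDM2. That setting was added once the data had been seen. It drops the HuR-IP arrays nearest to IgG-IP, which by itself favours a larger difference, so it is no support.

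Array by array, HuR-IP lay above the IgG-IP array of the same number in 6 of 6 cases for both genes, an outcome that 7.68% of all genes shared. For MDM2 these differences (number 1, then number 2) were 4.32 and 1.08 with DMSO, 3.19 and 2.81 with olaparib and 3.79 and 1.18 with gemcitabine. For MDM4 they were 3.37 and 1.54 with DMSO, 3.63 and 4.10 with olaparib and 3.93 and 1.43 with gemcitabine. The smaller values of both genes fell on the same 2 HuR-IP arrays that stood nearer to IgG-IP over all brighter genes. MDM2 and MDM4 followed each other over the 12 arrays (Pearson r = 0.90, as a description). Among the 9139 genes with a mean signal above 6, however, 924 had a higher r with MDM2, a count that includes MDM2 itself.

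**Figure D2:**
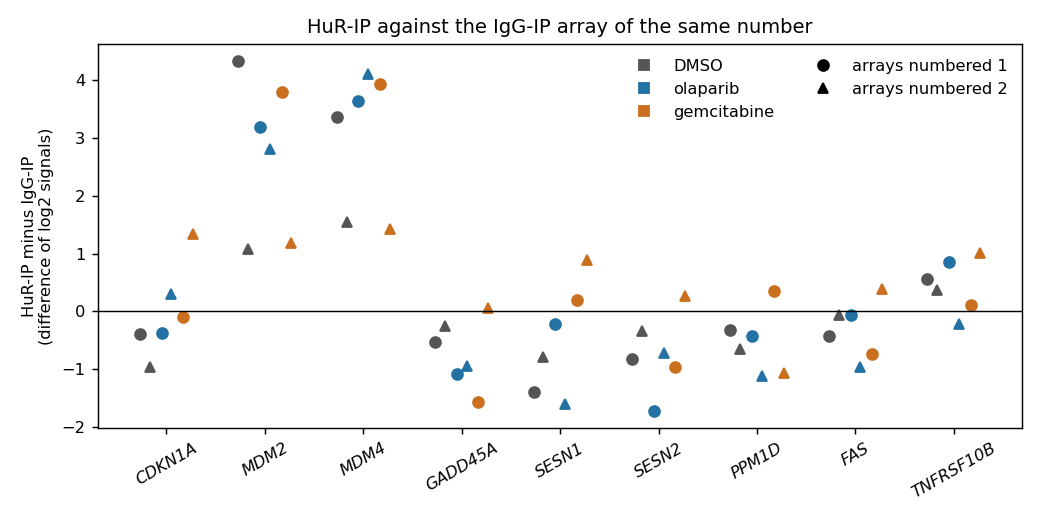
Difference of log2 signals between HuR-IP and the IgG-IP array of the same number (y axis) for each p53 response gene (x axis), coloured by treatment, with circles for arrays numbered 1 and triangles for those numbered 2. All 6 points of MDM2 and of MDM4 are above 0, from 1.08 to 4.32 and from 1.43 to 4.10, while 1 of 6 points is above 0 for GADD45A, SESN2, PPM1D and FAS.

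The remaining members gave smaller differences between the antibodies. CDKN1A (cluster TC0600007847.hg.1, chromosome 6) encodes p21, the inhibitor of cyclin-dependent kinases that carries out p53-dependent arrest. Its signal in DMSO was 4.04 and 4.35 after IgG-IP and 3.66 and 3.40 after HuR-IP, so that HuR-IP was lower on both arrays. With olaparib it was 4.05 and 3.51 after IgG-IP and 3.68 and 3.81 after HuR-IP, which overlap. With gemcitabine it was 5.39 and 3.73 after IgG-IP and 5.30 and 5.07 after HuR-IP, which also overlap. Averaged over treatments, its log2 fold change was -0.03 (SE 0.28, 95% CI -0.67 to 0.61, limma adjusted p = 0.968), its sign turned with cyclic loess or with centring on the brighter genes, and CDKN1A lay below the brightest background feature on every array.

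GADD45A, a stress sensor that takes part in arrest at G2 and in DNA repair, had 6.30 and 5.64 after IgG-IP against 5.77 and 5.39 after HuR-IP in DMSO. Its values were 6.94 and 5.80 against 5.85 and 4.86 in olaparib, and 7.15 and 4.86 against 5.57 and 4.91 in gemcitabine, and the antibodies overlapped in every treatment. GADD45A had a log2 fold change of -0.72 (SE 0.43, limma adjusted p = 0.359). It passed the brightest background feature on 1 of 12 arrays, the gemcitabine IgG-IP array numbered 1.

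The sestrins restrain mTORC1 signalling and oxidative stress. SESN2 had 6.18 and 5.40 after IgG-IP and 5.36 and 5.06 after HuR-IP in DMSO, and 6.66 and 5.19 against 4.95 and 4.47 in olaparib, with HuR-IP the lower on both arrays in both. In gemcitabine SESN2 had 5.94 and 5.03 against 4.99 and 5.28, which overlap. Averaged over treatments, its log2 fold change was -0.71 (SE 0.30, limma unadjusted p = 0.0459, adjusted p = 0.197), so it did not pass after adjustment. SESN1 had 5.61 and 4.59 after IgG-IP and 4.23 and 3.80 after HuR-IP in DMSO, and 4.35 and 5.14 against 4.14 and 3.54 in olaparib. In gemcitabine the order was the other way, at 4.55 and 4.23 after IgG-IP and 4.74 and 5.11 after HuR-IP. Averaged over treatments, SESN1 had a log2 fold change of -0.49 (SE 0.25, limma adjusted p = 0.281), and it was below the brightest background feature on every array.

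PPM1D encodes the phosphatase that switches off p53 and the kinases that activate it. It had 6.66 and 6.14 after IgG-IP against 6.34 and 5.49 after HuR-IP in DMSO, and 6.52 and 6.34 against 6.09 and 5.23 in olaparib. In gemcitabine PPM1D had 6.51 and 6.37 against 6.86 and 5.31, where the HuR-IP arrays lay on either side of the IgG-IP pair. The log2 fold change of PPM1D was -0.54 (SE 0.31, limma adjusted p = 0.342). The antibodies were apart in olaparib alone, where HuR-IP was lower.

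The death receptors overlapped between the antibodies in most treatments. FAS had 5.12 and 5.37 after IgG-IP and 4.70 and 5.31 after HuR-IP in DMSO, 5.50 and 5.98 against 5.43 and 5.02 in olaparib, and 5.91 and 5.60 against 5.17 and 5.98 in gemcitabine. Both HuR-IP arrays lay below both IgG-IP arrays in olaparib only. The log2 fold change of FAS was -0.31 (SE 0.21, limma adjusted p = 0.428), a sign that turned with centring on the brighter genes. TNFRSF10B, the receptor for the death ligand TRAIL, had 6.27 and 5.38 against 6.83 and 5.75 in DMSO, 5.87 and 5.86 against 6.71 and 5.65 in olaparib, and 6.54 and 6.02 against 6.65 and 7.03 in gemcitabine. For TNFRSF10B both HuR-IP arrays lay above both IgG-IP arrays in gemcitabine only, by a small margin. By number HuR-IP was the higher on 5 of 6 arrays, with a log2 fold change of 0.44 (SE 0.29, limma adjusted p = 0.405). TNFRSF10B passed the brightest background feature on 6 of 12 arrays, 4 of them HuR-IP.

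**Figure D3:**
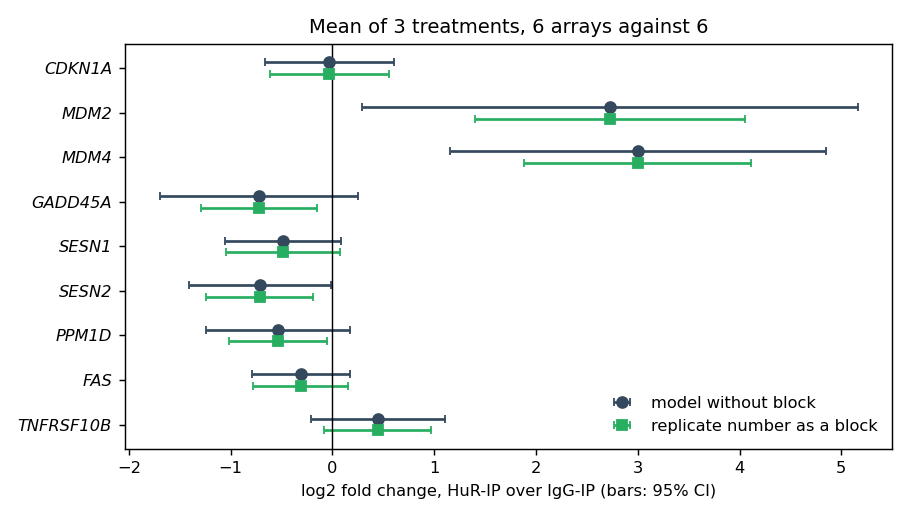
Log2 fold change of HuR-IP over IgG-IP as the mean of 3 treatments (x axis, bars 95% CI) for the 9 measured p53 response genes (y axis), from the model without a block (circles) and with the replicate number as a block (squares). The estimates are the same in both models, 2.999 for MDM4 and 2.73 for MDM2, and the block narrows the interval of MDM4 from 1.15 to 4.85 to 1.89 to 4.11.

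Over the set, the median log2 fold change in the mean of 3 treatments was -0.31, beside -0.07 over all genes, with 3 of 9 genes above 0. The deposited scaling matters for this count, since centring each array on its brighter genes moved the median of all genes to 0.38, that of the 9 genes to 0.14 and the number above 0 to 5, and cyclic loess moved them to 0.01, -0.09 and 4. MDM2, MDM4 and TNFRSF10B were above 0 in all 3 scalings, and GADD45A, SESN1, SESN2 and PPM1D below. The arrays also differed by number: MDM2, MDM4, GADD45A and PPM1D were higher on the array numbered 1 in 6 of 6 groups, by 2.61, 1.89, 1.02 and 0.68 on average, a pattern seen in 9.26% of all genes.

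Within single treatments, limma called 0 of 9 genes after adjustment in each, against 0.499% of all genes in DMSO, 3.47% in olaparib and 1.03% in gemcitabine. In DMSO, MDM4 had a log2 fold change of 2.45 (limma adjusted p = 0.780) and MDM2 of 2.70 (adjusted p = 0.829). These values rested on single arrays: without the DMSO HuR-IP array numbered 2 they were 3.72 for MDM4 and 5.11 for MDM2, and without that numbered 1 they were 1.18 and 0.29. With the gemcitabine HuR-IP array numbered 2 left out as well, the DMSO values stayed 3.72 for MDM4 and 5.11 for MDM2, from 1 HuR-IP array. SESN1 had -1.09 (SE 0.43, limma unadjusted p = 0.034, adjusted p = 0.582) and was the only member past the unadjusted threshold, against 7.56% of all genes. HuR-IP arrays lay apart above IgG-IP for 1 gene, MDM4, where 12.7% of all genes did so, and apart below for CDKN1A, SESN1 and SESN2, where 23.9% did so. In olaparib, MDM4 had its highest value, 3.86 (SE 1.399, limma unadjusted p = 0.0234, adjusted p = 0.194). With the replicate block MDM4 was called there (adjusted p = 0.0269), in a model that called 3.18% of all genes higher and 6.82% lower. MDM2 had 2.996 (adjusted p = 0.450), and SESN2 had -1.21 (limma unadjusted p = 0.0494, adjusted p = 0.277), while 17.9% of all genes passed the unadjusted threshold. MDM2 and MDM4 were apart above (20.4% of all genes) and SESN1, SESN2, PPM1D and FAS apart below (30% of all genes).

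In gemcitabine, MDM4 had a log2 fold change of 2.68 (limma adjusted p = 0.572) and MDM2 of 2.49 (adjusted p = 0.714), and 0 of the 9 genes passed an unadjusted p under 0.05, against 10.4% of all genes. SESN1 and TNFRSF10B were apart above, against 14.6% of all genes, and none was apart below, against 21.5%. Without the gemcitabine and DMSO HuR-IP arrays numbered 2, which leaves 1 HuR-IP array in gemcitabine, the log2 fold changes were 4.91 for MDM2 and 4.92 for MDM4. Without the gemcitabine HuR-IP array numbered 1 the values were 0.07 for MDM2 and 0.45 for MDM4.

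The IgG-IP arrays alone were compared between treatments to see whether background RNA of the response genes differed with the drugs. No gene of the set passed the test in any of these comparisons. In a bulk sample such as these, fewer cells holding a transcript and less of it in each cell cannot be told apart. Nor can a changed level be told from a changed recovery by IgG, and both drugs were compared with the same DMSO arrays. With olaparib the 9 differences from DMSO ran from -0.42 for CDKN1A (95% CI -1.52 to 0.68) to 0.67 for MDM2 (95% CI -3.55 to 4.88), and 0 were called by limma after adjustment, as was 0% of all genes. With gemcitabine they ran from -1.37 for MDM4 (95% CI -4.57 to 1.82) to 0.50 for FAS (95% CI -0.33 to 1.34), again with 0 called and 0% of all genes. At an unadjusted p under 0.05 from limma, 0 of 9 passed with either drug, against 1.31% of all genes for olaparib and 2.39% for gemcitabine.

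CDKN1A, the usual readout of p53 activity, had 4.04 and 4.35 on the IgG-IP arrays in DMSO, 4.05 and 3.51 with olaparib and 5.39 and 3.73 with gemcitabine, so that 1 of the gemcitabine arrays was the highest and the groups overlapped. Its difference from DMSO was 0.36 with gemcitabine (95% CI -0.74 to 1.46), an interval that includes a rise of more than 1 on the log2 scale. FAS was the gene whose IgG-IP arrays lay above both DMSO arrays with each drug, an outcome met by 10.4% of all genes for olaparib and 12% for gemcitabine, at 0.49 and 0.50. MDM4 and SESN1 lay below with gemcitabine, against 13.9% of all genes. Between the drugs, gemcitabine minus olaparib ran from -1.40 (MDM4) to 0.78 (CDKN1A), with 0 of 9 past an unadjusted p under 0.05, against 1.85% of all genes, and 0 of 9 called after adjustment by limma, as for 0% of all genes.

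**Figure D4:**
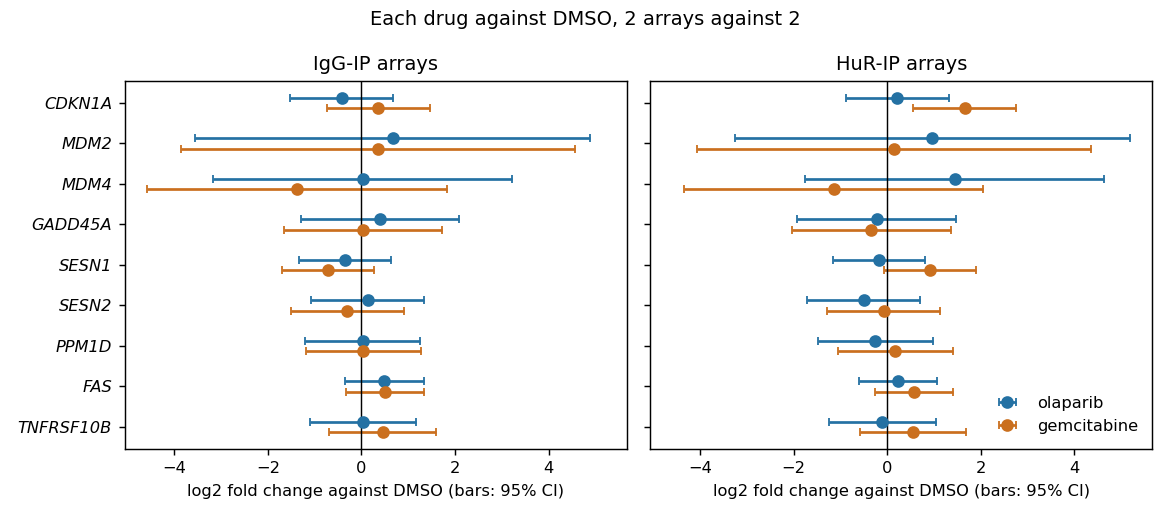
Log2 fold change against DMSO (x axis, bars 95% CI) of each p53 response gene (y axis) on IgG-IP arrays (left) and HuR-IP arrays (right), olaparib in blue and gemcitabine in orange, 2 arrays against 2, both drugs against the same DMSO arrays. Every interval on the IgG-IP side includes 0, and on the HuR-IP side CDKN1A with gemcitabine, at 1.66, does not.

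On HuR-IP arrays, CDKN1A was the gene of the set with the lowest p for a drug against DMSO. It had 3.66 and 3.40 in DMSO, 3.68 and 3.81 with olaparib and 5.30 and 5.07 with gemcitabine. Both gemcitabine arrays lay above the rest, by a difference of log2 signals of 1.66 from DMSO (SE 0.48, 95% CI 0.55 to 2.76, limma unadjusted p = 0.00831, adjusted p = 1.00), where 2.58% of all genes passed the unadjusted threshold and 0% the adjusted one. The difference lies between signals that were all below the brightest background feature of their arrays, and without the gemcitabine and DMSO HuR-IP arrays numbered 2, which leaves 1 array in each group, it was 1.64 with a limma unadjusted p of 0.0667. The gene whose profile over the 12 arrays was most like that of CDKN1A was SPATA6 (Pearson r = 0.85, among 9139 genes with a mean signal above 6), followed by TRMT1L and RIBC2 (0.79 each), and for MDM2 these were COQ7, MTFMT and SMAD2 (0.99 each).

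SESN1 shared the direction on the HuR-IP side, with 4.23 and 3.80 in DMSO and 4.74 and 5.11 with gemcitabine, a difference of 0.91 (SE 0.43, limma unadjusted p = 0.0652, adjusted p = 1.00). CDKN1A and SESN1 were the 2 genes whose gemcitabine HuR-IP arrays both lay above DMSO, against 13.5% of all genes. With olaparib the 9 HuR-IP differences ran from -0.50 (SESN2) to 1.44 (MDM4), and 0 passed an unadjusted p under 0.05, against 5.83% of all genes.

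The distance of HuR-IP from IgG-IP was itself compared between each drug and DMSO. For olaparib it ran from -0.63 (SESN2) to 1.41 (MDM4, 95% CI -3.11 to 5.93), and 0 of 9 passed an unadjusted p under 0.05 from limma, against 2.65% of all genes. For gemcitabine it ran from -0.37 (GADD45A) to 1.62 (SESN1, SE 0.61, 95% CI 0.24 to 3.01, limma unadjusted p = 0.027, adjusted p = 1.00), with SESN1 the only one of 9 past the unadjusted threshold, against 1.51% of all genes. For CDKN1A, whose HuR-IP arrays differed with gemcitabine, this distance changed by 1.30 (95% CI -0.27 to 2.86, limma unadjusted p = 0.0925). After adjustment the test called none of the 9 with either drug, and 0% of all genes. The intervals for MDM2, -5.66 to 6.26 with olaparib and -6.17 to 5.75 with gemcitabine, leave large differences in either direction undetectable with 2 arrays a group.

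The wider p53 pathway was described from lists of genes with known roles, in the mean of the 3 treatments, beside 2.39% of all genes called higher, 7.51% called lower and a median of -0.07. Of all calls, 24.2% were higher ones as deposited, 52.4% with cyclic loess and 57.0% with centring on the brighter genes. Among p53 regulators, 22 of 27 were measured, 1 was higher, 3 were lower and the median was -0.48. The histone acetyltransferase CREBBP, a p53 coactivator, was higher after HuR-IP (log2 fold change 1.96, SE 0.32, limma adjusted p = 0.00725), with 12.65 and 11.10 against 13.86 and 13.08 in DMSO. RPL11, a ribosomal protein that inhibits MDM2 under nucleolar stress, was lower (-2.25, adjusted p = 0.00284), as were TP53BP1, a repair scaffold (-1.52, adjusted p = 0.0278), and the acetyltransferase KAT5 (-1.46, adjusted p = 0.0453).

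Of other p53 targets that act in arrest and feedback, 17 of 18 were measured, 2 were higher, 0 lower, and the median was -0.04. These were SUSD6 (2.82, SE 0.58, limma adjusted p = 0.0199) and E2F7, a repressor of cell cycle genes (1.15, SE 0.26, adjusted p = 0.0303). On IgG-IP arrays E2F7 had a difference of 2.01 with gemcitabine against DMSO (unadjusted p = 0.00199, adjusted p = 1.00), and the kinase gene PLK2 of the same list had -1.43 (unadjusted p = 0.0304, adjusted p = 1.00). Of p53 targets in cell death, 19 of 20 were measured, 0 were higher and 3 lower (median -0.19): SIVA1 (-2.18, adjusted p = 0.009), TP53I3 (-1.24, adjusted p = 0.018) and TRIAP1 (-1.10, adjusted p = 0.00507). TRIAP1 lay below the brightest background feature on all 12 arrays, so its value is a difference between signals within the range of background features. SIVA1 and TP53I3 passed the brightest one on 7 of 12.

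Of targets in repair and metabolism, 18 of 20 were measured, 1 was higher and 3 lower (median -0.31). The ceramidase gene ACER2 was higher (1.55, limma adjusted p = 0.0279), and XPA of nucleotide excision repair (-1.88, adjusted p = 0.0283), the translesion polymerase POLK (-1.12, adjusted p = 0.0364) and FBXO22 (-1.83, adjusted p = 0.0481) were lower. Among relatives of the 10 genes, 21 of 22 were measured, 2 were higher and 2 lower (median -0.06): the receptor TNFRSF1A (2.44, adjusted p = 0.0219) and TOB1, of the BTG family (2.67, adjusted p = 0.0306), were higher, and GADD45B (-0.85, adjusted p = 0.0336) and BTG3 (-1.501, adjusted p = 0.0486) lower. In death receptor signalling, 12 of 16 were measured, 0 were higher and 2 lower (median -0.42), the Fas inhibitor FAIM (-2.49, adjusted p = 0.00234) and the Fas-binding FAF1 (-1.55, adjusted p = 0.0336). Of the other named list genes, KAT5 and ACER2 passed the brightest background feature on 3 of 12 arrays and GADD45B on 4. On IgG-IP arrays, 0 genes of any of these lists were called between treatments. The lower calls depended on the scaling: none of the 19 named list genes changed sign, but 12 stayed called with cyclic loess and 13 with centring on the brighter genes, and all that were lost were lower calls. TP53BP1, KAT5, POLK and GADD45B lost the call in both scalings, FBXO22, BTG3 and FAF1 with cyclic loess only, and TRIAP1 and TP53I3 with centring only.

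**Figure D5:**
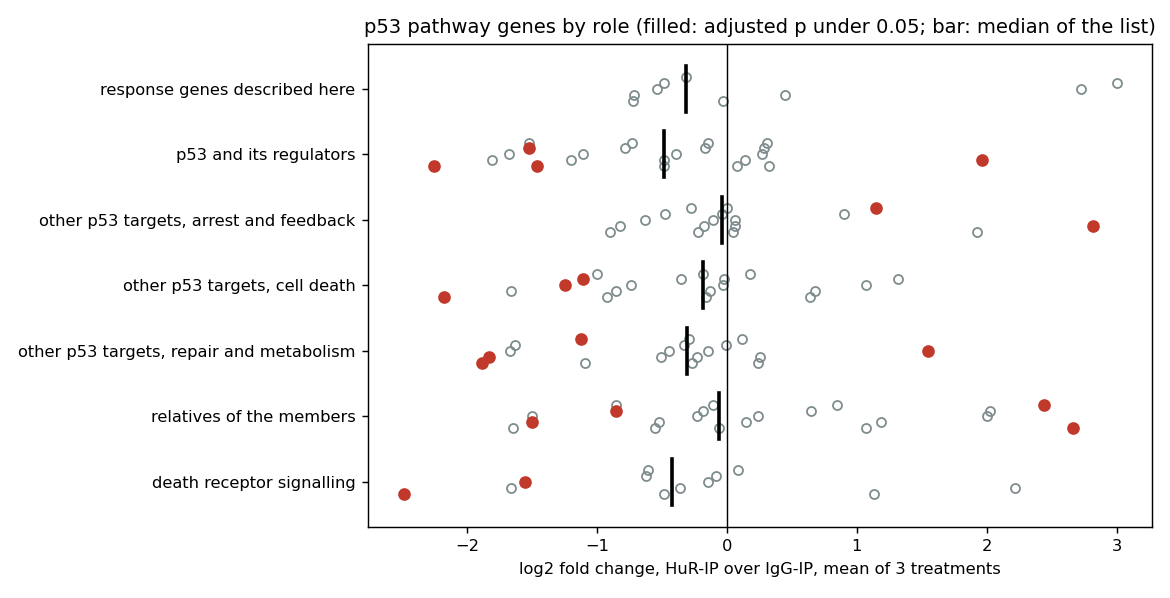
Log2 fold change of HuR-IP over IgG-IP, mean of 3 treatments (x axis), for genes of the p53 pathway grouped by role (y axis), filled red where the adjusted p was under 0.05, with a bar at the median of each list. MDM4 at 2.999 and MDM2 at 2.73 stand to the right without passing the adjusted threshold, near SUSD6 at 2.82 and TOB1 at 2.67, which pass it.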

How the data were processed

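RNP-IP RNA from MiaPaCa-2 cells was measured on 12 Clariom D arrays. The deposited values are log2 signals that the authors made from raw intensities in Affymetrix Expression Console 1.4, with RMA named in the submitters' processing notes; the genome build of the array annotation is not given in the sources used here. Such a normalization gives all arrays a like distribution, so levels are relative within an array. The table holds 138559 transcript clusters and 186 controls, 36176 clusters had 1 gene symbol, and 33458 genes were tested, each by its brightest cluster, with no filter on dim genes. Names followed the RefSeq table of GRCh38.p14 (gene ID matched 25516 clusters, the symbol 9899, an older symbol 623, and 138 were left as annotated).

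A 6-group linear model was fitted with limma 3.58.1 in R 4.3.3 (6 residual and 2.42 prior degrees of freedom), with Benjamini-Hochberg adjustment over all genes. The genes and lists, and the rule that names all members, up to 4 called genes a list and the 3 genes most like CDKN1A and MDM2, were chosen with earlier results of these data known. Same-numbered arrays deviated together from their group means (correlations 0.25 to 0.91 over 15 pairs of groups), a pairing inferred from these values and the numbers in the labels. The model was tested on simulated data: over 33458 genes, log2 changes of 1, 2, 3 and 4 in the mean of the 3 treatments were recovered for 30, 76, 88 and 94% of changed genes. Among the unchanged genes, 8 were called. The simulated noise was independent between arrays and the change was equal on all HuR-IP arrays, unlike the shared deviations above. These shares therefore may not hold for the real arrays. Alternatives were a replicate block, another prior, 2 other scalings, a filter, the mean of clusters, only the arrays compared and leaving out arrays.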

Additional observations from a re-analysis of the deposited data

Results flagged for a closer look

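For SESN1, the distance of HuR-IP from IgG-IP was 1.62 higher on the log2 scale with gemcitabine than with DMSO (SE 0.61). An interaction term in limma tested this difference (unadjusted p = 0.027, adjusted p = 1.00), so it was not called after adjustment. In that comparison 0% of all genes were called, and 1.51% passed an unadjusted p under 0.05. HuR-IP lay below IgG-IP in DMSO (-1.09) and above it with gemcitabine (0.54). The value was 1.11 to 2.14 when single arrays were left out, lowest without the DMSO IgG-IP array numbered 1 (unadjusted p = 0.0984), and 1.23 without the gemcitabine and DMSO HuR-IP arrays numbered 2 (unadjusted p = 0.168). All SESN1 signals were below the brightest background feature of their array.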

How the results depend on the processing

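No count of called genes in the set fell under any alternative, since each was 0. With the replicate block, 1 gene was called in olaparib (MDM4) and 2 in the mean of the 3 treatments (MDM2 and MDM4), and the block changed no other call of the 9 genes. In olaparib, a model of only the arrays compared called 2 (MDM2, adjusted p = 0.0499, and MDM4, adjusted p = 0.0219), with 2.15% of all genes called higher and 4.98% lower; for the mean of the 3 treatments it is the same model. In the mean of the 3 treatments, 1 gene, MDM4, was called with a trended and robust prior (adjusted p = 0.028), with cyclic loess (0.0249) and with genes above a mean signal of 5 only (0.0231), a filter that removes CDKN1A and SESN1, and 2, MDM2 and MDM4, with centring on the median of the brighter genes (0.0363 and 0.00708). Of the genes tested, 2.68, 5.46, 8.67 and 6.84% were called higher and 7.08, 4.96, 21.4 and 5.16% lower in these settings, in that order. Leaving out single arrays gave log2 fold changes in the mean of the 3 treatments of 2.25 to 3.74 for MDM4 and 1.92 to 3.53 for MDM2. Without the gemcitabine and DMSO HuR-IP arrays numbered 2, an alternative added once the data had been seen, these were 4.17 for MDM4 and 4.34 for MDM2. The arrays left out were the nearest to IgG-IP, which by itself favours larger differences, so this alternative is no support. The cause of the differences between settings was not tested. Over all settings but the last named, 129 of 1850 values of single genes changed sign, none with an unadjusted p under 0.05 before or after, and without these 2 arrays 10 of 63 did. The share of higher calls among all genes was 24.2% as deposited, 52.4% with cyclic loess and 57.0% with centring on brighter genes. Signal below the brightest background feature limits CDKN1A, SESN1 and TRIAP1 on every array and MDM2 on most IgG-IP arrays.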
